A study of Mus musculus with 15 samples.

Results

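CXC chemokines are small secreted proteins that call leukocytes to a tissue, and 9 of their genes were followed in cultured mouse hepatocytes: Cxcl1, Cxcl2, Cxcl5, Cxcl9, Cxcl10, Cxcl11, Cxcl12, Cxcl14 and Cxcl16. They were taken by gene symbol from a table of raw exon counts, where each had 1 row among 38087 gene rows, and all 9 had enough counts to be tested. RNA was sequenced from 13 libraries in 5 groups. In the first group, male hepatocytes were kept in serum of conventionally raised (ConvR) male mice (n = 3). Female hepatocytes made up the other 4 groups. They were kept in serum of germ-free (GF) female mice with growth hormone (GH) added (n = 3), in the same germ-free serum with vehicle (n = 2), in conventional male serum (n = 3) or in conventional female serum (n = 2). Germ-free mice carry no microbiota.

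The cells were cryopreserved hepatocytes of CD-1 mice, plated on collagen at 200000 cells per well. Male and female cells came as separate stocks, so sex and stock cannot be told apart. After 6 h of attachment all of them received medium with dexamethasone and insulin under a matrix overlay, and on the next day the sera, at 25% for 24 h. Mouse growth hormone (8 ng in each ml) or its vehicle acted for the last 2 h. No label tells if the replicates of a group came from different cultures or serum pools, so the p-values measure only the spread between these samples, which may be technical.

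Chemokines of this family bind receptors of the seven-helix type on white blood cells and are held on heparan sulfate of cell surfaces. Cxcl1, Cxcl2 and Cxcl5 attract neutrophils through Cxcr2, and injured or inflamed hepatocytes are a known source of Cxcl1 in liver. Cxcl9, Cxcl10 and Cxcl11 bind Cxcr3 on activated T cells and natural killer cells and are classic targets of interferons. Cxcl12 binds Cxcr4 and the decoy receptor Ackr3, Cxcl16 is a membrane-bound ligand of Cxcr6, and Cxcl14 is expressed in many epithelia.

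The neutrophil attractants and the Cxcr3 ligands lie in a pair of clusters on mouse chromosome 5 (mm10). Cxcl5 (90759360 to 90761624), Cxcl1 (90891241 to 90893115) and Cxcl2 (90903871 to 90905938) span 147 kb on the plus strand. Cxcl9 (92321347 to 92328079), Cxcl10 (92346638 to 92348889) and Cxcl11 (92359544 to 92365485) span 44.1 kb on the minus strand. Cxcl12 lies on chromosome 6 (117168535 to 117181367), Cxcl14 on chromosome 13 (56288643 to 56296551) and Cxcl16 on chromosome 11 (70453983 to 70459984). The 3 promoters below are shown because Cxcl1 and Cxcl2 moved together with serum and hormone while Cxcl10 moved apart from them. Each is the 250 bases before the gene's start in RefSeq on the coding strand, 5′ to 3′ (GRCm38.p6, a C57BL/6J genome, whereas the cells were CD-1). For Cxcl1 and Cxcl2 the RefSeq start lies inside the gene as located above, and distances are counted from the RefSeq start. Capitals mark matches to the NF-kB consensus or to a pair of GAAA separated by 2 bases, a core of interferon response elements.
Cxcl1, chr5:90890995-90891244, plus strand: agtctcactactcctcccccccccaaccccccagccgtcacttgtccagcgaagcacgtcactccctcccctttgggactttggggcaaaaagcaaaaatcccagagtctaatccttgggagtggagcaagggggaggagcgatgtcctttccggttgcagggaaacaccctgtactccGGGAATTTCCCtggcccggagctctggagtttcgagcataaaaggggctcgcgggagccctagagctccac
Cxcl2, chr5:90903649-90903898, plus strand: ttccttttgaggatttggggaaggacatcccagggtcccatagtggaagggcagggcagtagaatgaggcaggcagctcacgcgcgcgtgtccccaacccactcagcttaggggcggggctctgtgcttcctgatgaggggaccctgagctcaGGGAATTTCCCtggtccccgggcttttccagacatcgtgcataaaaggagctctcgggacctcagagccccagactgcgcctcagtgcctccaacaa
Cxcl10, chr5:92348890-92349139, minus strand: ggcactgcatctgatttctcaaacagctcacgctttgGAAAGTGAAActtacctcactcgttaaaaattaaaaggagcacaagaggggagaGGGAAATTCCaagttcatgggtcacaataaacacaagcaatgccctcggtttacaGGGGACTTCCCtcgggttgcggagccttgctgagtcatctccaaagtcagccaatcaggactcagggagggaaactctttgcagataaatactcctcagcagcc

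In Cxcl1 the capital run is 11 bases long, 71 to 61 bases before the start, and in Cxcl2 a run of the same letters lies 97 to 87 bases before the start. Each run holds 2 overlapping matches to the NF-kB consensus, 1 on each strand. In Cxcl10 the first run is the GAAA pair, 213 to 204 bases before the start. The others are matches to the NF-kB consensus at 159 to 150 bases and, as an overlapping pair, at 104 to 94 bases. None of the 3 windows held TTCNNNGAA or TATAAA. On either strand, 7.25% of the 32851 RefSeq promoter windows of this length held the NF-kB consensus, 2.98% the GAAA pair, 7.02% TTCNNNGAA and 12.4% TATAAA. Of the other members, Cxcl9, Cxcl12 and Cxcl14 had a promoter in the table. None of those 3 held the NF-kB consensus, and Cxcl14 held the GAAA pair and TTCNNNGAA once each, while Cxcl9 held TATAAA. A match describes the letters only, and binding was not measured.

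Libraries held 34097400 to 48742274 counts. Hepatocyte markers (6 genes) summed to 20348 to 21475 CPM (counts scaled to the size of the library) in male cells, against 6945 to 8497 CPM in female cells. Alb, the albumin gene, had 238383 to 627068 counts per library and Cps1 had 426 to 2374. A pair of libraries stood apart by Xist, the RNA of the inactive X chromosome: replicate 1 with growth hormone (685 CPM, its counts scaled to the size of the library) and replicate 2 of conventional female serum (482 CPM), against 268 to 395 CPM in the other female libraries. RNA of other liver cells was present. Markers of Kupffer cells, the liver macrophages, summed over 8 genes to 147 to 166 CPM in male cells. The sum was 87.6 to 106 CPM with growth hormone, 124 to 133 in germ-free, 77.2 to 97.2 in conventional male and 104 to 113 CPM in conventional female serum. Most of it was Cd68, whereas Timd4 was at 0 in 7 libraries. Sinusoidal endothelial markers (7 genes) summed to 68.1 to 69.6 CPM in male cells and 32.9 to 44.3 CPM in female cells, with none at 0. Neutrophil markers (4 genes) stayed at or below 1.21 CPM, with Ly6g at 0 in 9 libraries. The part of these cells in the results was not tested, and in bulk RNA fewer cells of a type and less RNA per cell cannot be told apart.

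Expression of the members differed widely. Per kb of exon, Cxcl1 and Cxcl16 were the most abundant, at 52.4 ± 3.59 and 57.8 ± 1.81 CPM per kb (SD, n = 2) in female cells with germ-free serum. On the same scale Cxcl2 stood at 9.75, Cxcl10 at 8.38, Cxcl11 at 5.39 and Cxcl12 at 2.57. Cxcl14, Cxcl5 and Cxcl9 were below 1, at 0.659, 0.607 and 0.161 CPM per kb. Counts per library ran from 15 to 45 for Cxcl9, 24 to 64 for Cxcl14 and 13 to 149 for Cxcl5, which limits what can be detected for these 3 genes. All CPM values, above and below, use library sizes scaled by the trimmed mean of M values (TMM). Levels below are in CPM, and changes are log2 fold changes with their standard error. A change between a pair of groups is that of the first named over the second.

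**Figure D1:**
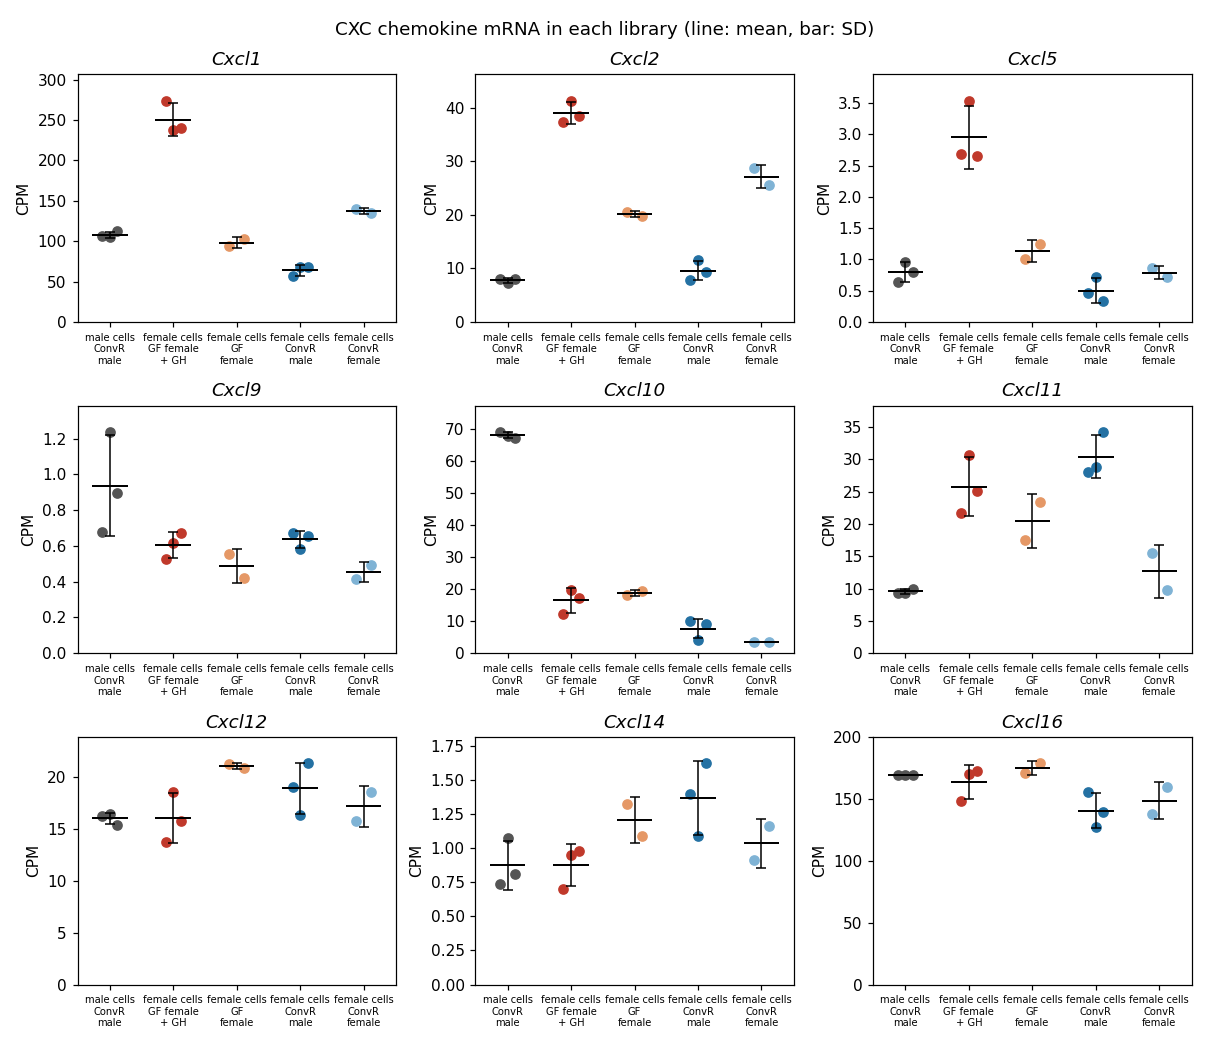
CPM of each of the 9 members (vertical axes, linear, each from 0) in each library by group, where points are libraries, lines are group means and bars are SD (n = 2 or 3). Cxcl1, Cxcl2 and Cxcl5 were highest with growth hormone in germ-free serum, whereas Cxcl10 was highest in male cells (67.3 to 69 CPM).

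Growth hormone for 2 h raised all 3 neutrophil attractants of female hepatocytes in germ-free serum. Cxcl1 stood at 274, 237 and 240 CPM with the hormone, against 93.5 and 103 CPM with vehicle. Every library with hormone lay above both vehicle libraries, and the level was 2.55-fold higher (log2 change 1.35 ± 0.0904, edgeR adjusted p = 3.1e-07). Cxcl2 measured 37.3, 41.3 and 38.5 CPM with hormone and 20.6 and 19.7 CPM with vehicle. The groups did not overlap, and the level was 1.94-fold higher (0.95 ± 0.115, edgeR adjusted p = 0.000229). Cxcl5 had 2.69, 3.54 and 2.65 CPM with hormone and 1.01 and 1.25 CPM with vehicle (1.39 ± 0.281, edgeR adjusted p = 0.0326). Its groups did not overlap either, but its call rested on 42 to 149 counts per library and was lost without any 1 of the 5 libraries (edgeR adjusted p 0.0732 to 0.391), while the change stayed between 1.24 and 1.55.

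The Cxcr3 ligands and the other members were not called with the hormone. Cxcl10 had 12.3, 19.8 and 17.3 CPM with hormone, against 18.2 and 19.5 CPM with vehicle, a change of -0.20 ± 0.22 (edgeR adjusted p = 0.745). Cxcl11 changed by 0.34 ± 0.174 and Cxcl9 by 0.31 ± 0.342. The groups overlapped for all 3. Cxcl12 had 13.8, 18.6 and 15.8 CPM with hormone and 21.2 and 20.8 CPM with vehicle, and its groups did not overlap (-0.39 ± 0.124, edgeR adjusted p = 0.199). Cxcl14 changed by -0.46 ± 0.28 and Cxcl16 by -0.09 ± 0.0878. In all, 3 of 9 members rose and 0 fell at an edgeR adjusted p under 0.05 (4 had an unadjusted p under 0.05, the fourth being Cxcl12), where 0.586% of the 17405 genes tested were called (0.511% higher and 0.0747% lower). The median change of the members was 0.31, against -0.00 over all genes. Of the 8 Kupffer cell markers, 5 were tested and had a median change of -0.23 with the hormone. Clec4f stood at -0.75 ± 0.186 (edgeR adjusted p = 0.105), Cd68 at -0.37 ± 0.107 (0.166) and Vsig4 at 0.04 ± 0.375. Of these 5 markers edgeR called 0 and DESeq2 called 1, and 2 had an unadjusted edgeR p under 0.05. The 7 stellate cell markers summed to 19.8 to 27.2 CPM with hormone, against 32.2 to 35.7 CPM with vehicle. Their part in the result was not tested.

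Serum moved the 2 abundant neutrophil attractants of female hepatocytes, which were lower in both other sera than in conventional female serum. Cxcl1 stood at 93.5 and 103 CPM in germ-free serum, against 140 and 135 CPM in conventional female serum (-0.49 ± 0.0952, edgeR adjusted p = 0.00677). Conventional male serum gave 56.5, 67.7 and 67.9 CPM, a larger fall against the same 2 female serum libraries (-1.10 ± 0.086, edgeR adjusted p = 1.41e-06). Cxcl2 had 20.6 and 19.7 CPM in germ-free and 28.7 and 25.6 CPM in conventional female serum (-0.43 ± 0.124, edgeR adjusted p = 0.0492). In conventional male serum it had 7.93, 11.5 and 9.36 CPM, which was 2.83-fold lower than in female serum (-1.50 ± 0.115, edgeR adjusted p = 1.36e-06). None of these groups overlapped. The falls with germ-free serum were the less firm: that of Cxcl1 lost its call without germ-free replicate 2 (edgeR adjusted p = 0.0861) or conventional female replicate 2 (0.0598). That of Cxcl2 lost its call without either germ-free library or conventional female replicate 2, with changes of -0.46, -0.40 and -0.35. It was lost also with library totals (edgeR adjusted p = 0.052) and in a fit of only the 2 groups compared (0.0531).

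Cxcl5 did not pass the test with either serum. It had 1.01 and 1.25 CPM in germ-free, against 0.867 and 0.715 CPM in conventional female serum (0.51 ± 0.327, edgeR adjusted p = 0.406). In conventional male serum it had 0.455, 0.723 and 0.329 CPM (-0.66 ± 0.326 against conventional female serum, edgeR adjusted p = 0.224). For Cxcl1 and Cxcl2 the 4 groups of female cells fell in the same order. Both were highest in germ-free serum with hormone, followed by conventional female, germ-free and conventional male serum, and each group differed from its neighbour, though not all of these steps held when a library was left out. Between germ-free and conventional male serum, Cxcl1 changed by 0.62 ± 0.0867 (edgeR adjusted p = 0.00604, or 0.166 without germ-free replicate 3) and Cxcl2 by 1.07 ± 0.117 (0.000837). Between germ-free serum with hormone and conventional female serum, Cxcl1 changed by 0.86 ± 0.0884 (edgeR adjusted p = 3.63e-05) and Cxcl2 by 0.52 ± 0.112 (0.0175). The call of Cxcl2 was lost without hormone replicate 2 (edgeR adjusted p = 0.0704), hormone replicate 3 (0.0584) or conventional female replicate 3 (0.151), and without both libraries rich in Xist (0.0509). For Cxcl5 only the group with hormone differed from its neighbour, which was germ-free serum with vehicle.

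Cxcl10 and Cxcl11 moved the other way and were higher in both other sera than in conventional female serum. Cxcl10 had 18.2 and 19.5 CPM in germ-free serum, against 3.47 and 3.62 CPM in conventional female serum. That was 5.32-fold higher (2.41 ± 0.276, edgeR adjusted p = 0.000164), and the change stayed between 2.36 and 2.46 when each of the 4 libraries was left out. In conventional male serum Cxcl10 had 9.96, 4.23 and 8.98 CPM, a spread of more than 2-fold among 3 libraries that all lay above those of female serum (1.13 ± 0.268, edgeR adjusted p = 0.0154). This call was lost without male serum replicate 1 (edgeR adjusted p = 0.0645) and in a fit of only the 2 groups compared (0.0913). It was lost too without female serum replicate 2 or 3, with changes of 1.09 and 1.16. Cxcl11 had 17.5 and 23.4 CPM in germ-free serum, 28.1, 28.9 and 34.2 CPM in conventional male serum, and 15.6 and 9.76 CPM in conventional female serum. The rise with male serum was called in every fit (1.26 ± 0.181, edgeR adjusted p = 0.000429). The rise with germ-free serum (0.69 ± 0.194, edgeR adjusted p = 0.0458) lost its call in a fit of only the 2 groups compared (0.11). It lost it too without either germ-free library or conventional female replicate 3, with changes of 0.88, 0.46 and 0.39. Without conventional female replicate 2 the change was 1.06.

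Among the female groups, Cxcl10 and Cxcl11 were both lowest in conventional female serum, but they differed in where they peaked. Cxcl10 was highest in germ-free serum with and without hormone, which were not told apart (edgeR adjusted p = 0.745). Against conventional male serum it was 1.28 ± 0.23 higher in germ-free serum (edgeR adjusted p = 0.029, lost without either germ-free library at 0.231 and 0.204, and with a replicate block at 0.0646) and 1.09 ± 0.21 higher in germ-free serum with hormone (0.00892). Cxcl11 was highest in conventional male serum, but its level there was not told apart from that with germ-free serum and hormone (edgeR adjusted p = 0.449). The groups with germ-free serum, with and without hormone, were not told apart either (0.432). Cxcl9, the third ligand of Cxcr3, had few counts in all groups. It averaged 0.485 ± 0.0952 CPM (SD, n = 2) in germ-free serum and 0.637 ± 0.0464 CPM (n = 3) in conventional male serum, against 0.452 ± 0.0553 CPM (n = 2) in conventional female serum. No pair of neighbouring groups differed for Cxcl9.

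The 3 remaining pairs of female groups complete the order of levels. In germ-free serum, 3 members (Cxcl1, Cxcl2 and Cxcl10) were higher than in conventional male serum and 0 were lower. Of all genes 0.448% were called (0.184% higher and 0.264% lower). In germ-free serum with hormone, 5 members (Cxcl1, Cxcl2, Cxcl5, Cxcl10 and Cxcl11) were higher than in conventional female serum and 0 were lower. Here 2.76% of all genes were called (1.58% higher and 1.18% lower, or 275 and 206 genes, against 247 and 304 with library totals). Cxcl5 was 3.72-fold higher in germ-free serum with hormone (1.89 ± 0.288, edgeR adjusted p = 0.0018). Without conventional female replicate 3 only 3 of these calls were left, with Cxcl11 lost (edgeR adjusted p = 0.0613) beside Cxcl2, and 232 to 413 genes were called with a library left out, against 481 with all. Against conventional male serum, 4 members (Cxcl1, Cxcl2, Cxcl5 and Cxcl10) were higher in germ-free serum with hormone and 0 were lower. There 2.9% of all genes were called (1.64% higher and 1.26% lower). This pair gave the widest span of the neutrophil attractants among the female groups. Cxcl1 was 3.91-fold, Cxcl2 4.07-fold and Cxcl5 5.89-fold higher in germ-free serum with hormone. These groups differ in serum as well as in hormone. Against vehicle in germ-free serum the hormone gave 2.55-fold, 1.94-fold and 2.61-fold.

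Of the 9 members, 2 rose and 2 fell with germ-free serum, where 6.41% of all genes were called (2.86% higher and 3.54% lower). With conventional male serum 2 rose and 2 fell as well, where 8.8% of all genes were called (3.95% higher and 4.85% lower). The median change was 0.23 with germ-free and 0.14 with conventional male serum, against -0.00 and 0.00 over all genes. These comparisons share the 2 libraries of conventional female serum, so their values are not independent. The germ-free libraries in turn are the vehicle group for growth hormone. Cxcl12, Cxcl14 and Cxcl16 were not called with either serum. Cxcl16 had 171 and 179 CPM in germ-free, against 138 and 159 CPM in conventional female serum (0.23 ± 0.0964, edgeR adjusted p = 0.173). Conventional male serum gave 155, 127 and 139 CPM, which overlapped the female serum (-0.08 ± 0.0879). Cxcl12 changed by 0.29 ± 0.136 with germ-free and 0.14 ± 0.125 with male serum, and Cxcl14 by 0.22 ± 0.303 and 0.40 ± 0.276. The 5 tested Kupffer cell markers had medians of -0.04 with germ-free and 0.02 with male serum. Cd68 stood at 0.27 ± 0.118 with germ-free serum (edgeR adjusted p = 0.204) and fell with male serum (-0.38 ± 0.107, 0.0366). Vsig4 stood at -0.55 ± 0.394 with germ-free and 0.51 ± 0.337 with male serum, neither called. Their part in the serum results was not tested.

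**Figure D2:**
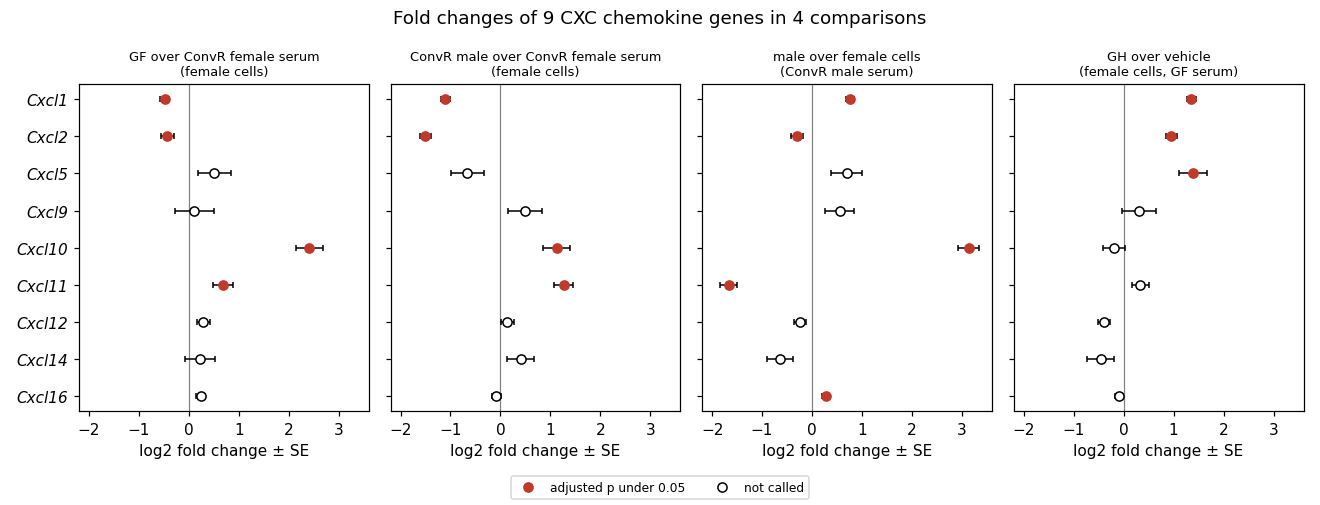
Log2 fold changes of the 9 members (horizontal axes, bars are standard errors) in the 4 comparisons, with filled points where the edgeR adjusted p was under 0.05. Cxcl1 and Cxcl2 lie left of 0 for both sera and right of 0 for growth hormone, and in male over female cells Cxcl10 lies at 3.13 and Cxcl11 at -1.67.

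Male and female hepatocytes in the same conventional male serum differed most in Cxcl10 and Cxcl11, in opposite directions. Cxcl10 had 69, 67.8 and 67.3 CPM in male cells, against 9.96, 4.23 and 8.98 CPM in female cells. It was 8.78-fold higher in male cells (3.13 ± 0.212, edgeR adjusted p = 1.02e-08). The 3 male libraries also lay above every female library in any serum. Cxcl11 had 9.34, 9.34 and 10 CPM in male cells, against 28.1, 28.9 and 34.2 CPM in female cells. It was 3.18-fold lower in male cells (-1.67 ± 0.164, edgeR adjusted p = 8.28e-07). In male cells Cxcl10 thus stood at 30.2 ± 0.397 and Cxcl11 at 2.52 ± 0.1 CPM per kb of exon (SD, n = 3), against 3.43 ± 1.36 and 8.01 ± 0.879 CPM per kb in female cells (n = 3). Cxcl9 measured 0.676, 1.24 and 0.893 CPM in male cells and 0.67, 0.584 and 0.658 CPM in female cells, which did not pass the test (0.56 ± 0.291, edgeR adjusted p = 0.15).

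Of the neutrophil attractants, Cxcl1 was clearly higher in male than in female cells. It had 107, 105 and 112 CPM in male cells and 56.5, 67.7 and 67.9 CPM in female cells, a rise of 0.76 ± 0.0788 (edgeR adjusted p = 1.66e-06). Cxcl2 had 8.02, 7.28 and 7.98 CPM in male cells and 7.93, 11.5 and 9.36 CPM in female cells. These groups overlapped, and its call as lower in male cells (-0.30 ± 0.114, edgeR adjusted p = 0.0461) was lost in 5 of 6 fits that left out a library (highest adjusted p = 0.253), with values of -0.42 to -0.16. Cxcl3, a close neighbour of Cxcl2 that also attracts neutrophils, averaged 0.644 ± 0.0786 CPM in male and 2.07 ± 0.355 CPM in female cells (SD, n = 3 each; -1.68 ± 0.23, edgeR adjusted p = 2.76e-05). Cxcl5 had 0.645, 0.961 and 0.807 CPM in male cells and 0.455, 0.723 and 0.329 CPM in female cells (0.69 ± 0.306, edgeR adjusted p = 0.0893, or 0.0207 without female replicate 2).

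Cxcl16 had 169, 169 and 170 CPM in male cells and 155, 127 and 139 CPM in female cells (0.27 ± 0.0789, edgeR adjusted p = 0.0133). The groups did not overlap, but its call was lost without female replicate 2 (adjusted p = 0.0641) and with library totals in place of TMM (0.08). Cxcl12 changed by -0.24 ± 0.113 (edgeR adjusted p = 0.108) and Cxcl14 by -0.64 ± 0.257 (0.0614), neither past the test. Both were called with library totals (edgeR adjusted p = 0.0331 and 0.0357) and without female replicate 2 (0.0339 and 0.0359). Cxcl14 was called also without male replicate 2 (0.0499). With all libraries and TMM, 3 members rose and 2 fell in male cells. This share is to be read against 36.7% of all genes called in this comparison (17.6% higher and 19% lower). Those were 3065 genes higher and 3314 lower, or 2349 higher and 4643 lower with library totals in place of TMM, where the median of all genes was -0.11 instead of -0.02. Of the markers, 5 of 7 endothelial genes were higher in male cells, with Stab2 at 1.37 ± 0.141. Of the 6 hepatocyte genes 5 were higher too, from Ttr at 1.15 ± 0.139 to Cps1 at 2.38 ± 0.0822, while Ass1 was not called (0.08 ± 0.0669). Of the 5 tested Kupffer cell genes Cd68 was higher (0.96 ± 0.0974), while the other 4 lay below 0 and were not called, from Clec4f at -0.04 ± 0.163 to Vsig4 at -0.82 ± 0.316, so that the list median was -0.27. Their part in these differences was not tested.

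Leaving out both libraries rich in Xist ended 4 of the 16 calls of members in the 4 comparisons. They were Cxcl2 with germ-free serum (edgeR adjusted p = 0.311), Cxcl10 with conventional male serum (0.0602), Cxcl5 with growth hormone (0.0703) and Cxcl2 in male cells (0.0546). The other 12 calls held, with the same direction.

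Genes on both sides of chemokine signalling were followed as lists. Their calls are to be read against all genes, of which 6.41% were called with germ-free serum and 8.8% with conventional male serum. In male cells it was 36.7% and with the hormone 0.586%. Of the 6 other CXC ligands, Cxcl3 rose with growth hormone (10.1 ± 1.42 CPM with hormone, n = 3, and 4.73 ± 0.271 CPM with vehicle, n = 2; 1.09 ± 0.177, edgeR adjusted p = 0.00569). It fell with conventional male serum (-1.59 ± 0.185, edgeR adjusted p = 7.86e-05), and the other 5 passed the test neither with a serum nor with the hormone. With germ-free serum 0 of the 6 had an unadjusted p under 0.05, and edgeR and DESeq2 called 0. Cxcl3 was near that limit, at 4.73 CPM against 6.29 CPM in conventional female serum (-0.41 ± 0.192, edgeR unadjusted p = 0.0507). Its groups did not overlap. In male cells 2 of the 6 were higher, Cxcl13 and Cxcl17 (2.25 ± 0.626 and 2.65 ± 0.475), and 1 was lower, Cxcl3. The receptors were scarce: Cxcr1, Cxcr3 and Cxcr6 had at most 2 counts in any library and Cxcr2 at most 12. Of 10 receptors 5 had enough counts to be tested. With germ-free serum 0 of these 5 were called by edgeR and 0 by DESeq2, and 2 had an unadjusted p under 0.05. With the hormone 0 were called by either tool, and 3 had an unadjusted p under 0.05. Ackr1, a decoy receptor of red blood cells and endothelium, had 113 counts over 3 libraries with hormone and 15 over 2 with vehicle (unadjusted p = 0.00154, edgeR adjusted p = 0.121). Cxcr4 had 21 and 29 counts in these groups (unadjusted p = 0.016). Ackr1 fell with conventional male serum, to 1 to 3 counts per library, against 12 to 19 in conventional female serum (edgeR adjusted p = 0.0208). In male cells 2 of the 5 tested receptors were called higher and 0 lower. Cxcr4 rose to 1.02 ± 0.12 CPM, against 0.347 ± 0.129 CPM in female cells (SD, n = 3 each). Ackr3 had 6 to 10 counts per library, against 0 in each of the 3 libraries of female cells in the same serum. The other female libraries had 0 to 5 counts of Ackr3.

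Some feedback genes of NF-kB, a factor known to drive Cxcl1 and Cxcl2 in many cells, rose with growth hormone. Of 14 NF-kB subunits and feedback genes, 5 rose and 0 fell, with a list median of 0.31 against -0.00 over all genes, of which 0.586% were called. They were Nfkbiz (1.23 ± 0.105), a nuclear cofactor of NF-kB, Tnfaip3 (1.22 ± 0.0987), the feedback inhibitor A20, Zc3h12a (1.06 ± 0.176), an RNase that degrades inflammatory mRNAs, Nfkbia (0.77 ± 0.0708), the inhibitor I-kappa-B alpha, and Birc3 (0.44 ± 0.0657). The 5 subunit genes Rela, Relb, Rel, Nfkb1 and Nfkb2 were not called with the hormone, nor were Nfkbib, Nfkbie, Tnip1 and Zfp36. A part of NF-kB in the changes of the members was not tested. With germ-free serum (6.41% of all genes called) 2 rose and 0 fell, Relb (0.40 ± 0.0962) and Nfkb2 (0.34 ± 0.0817), both subunits of the alternative NF-kB route. With conventional male serum (8.8% of all genes called) 0 rose and 3 fell, Nfkbie (-0.50 ± 0.14), Tnfaip3 (-0.40 ± 0.0945) and Nfkbia (-0.26 ± 0.0692). In male cells (36.7% of all genes called) 4 rose, Tnfaip3 by 0.66 ± 0.0856 first among them, and 3 fell, with Tnip1 at -0.40 ± 0.0807.

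Of the interferon route, Ifit1 fell with both other sera and Irf1 rose with the hormone. Of 17 genes of interferon receptors, their signalling and interferon targets, 0 rose and 1 fell with germ-free serum, where Cxcl10 rose and 6.41% of all genes were called. Of the list, 4 had an unadjusted p under 0.05, and DESeq2 called 2. The fall was that of Ifit1, an antiviral protein, at 36.4 CPM in germ-free and 59.1 CPM in conventional female serum (-0.70 ± 0.137, edgeR adjusted p = 0.00677). With conventional male serum, where 8.8% of all genes were called, 0 rose and 3 fell: Ifit1 (-0.63 ± 0.123), the interferon gamma receptor Ifngr1 (-0.46 ± 0.0803) and the transcription factor Irf1 (-0.32 ± 0.0904). With the hormone 1 rose, Irf1 (0.62 ± 0.092), and 0 fell, where 0.586% of all genes were called. In male cells, where 36.7% of all genes were called, 4 rose, with Irf7 at 0.67 ± 0.105, and 1 fell, Stat2 (-0.25 ± 0.0794). The list medians were -0.13 with germ-free serum, -0.07 with male serum, 0.11 in male cells and 0.10 with the hormone. Of 6 genes that shed, cleave or hold chemokines, Sdc4, the proteoglycan syndecan-4, fell with germ-free serum (-0.50 ± 0.0709) and with male serum (-0.32 ± 0.0642). In male cells Adam17, a sheddase, rose (0.21 ± 0.0597) and Dpp4, a protease that trims Cxcl10 and Cxcl12, fell (-0.40 ± 0.125). With the hormone 0 of the 6 were called by edgeR and 1 by DESeq2, and 3 had an unadjusted p under 0.05.

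**Figure D3:**
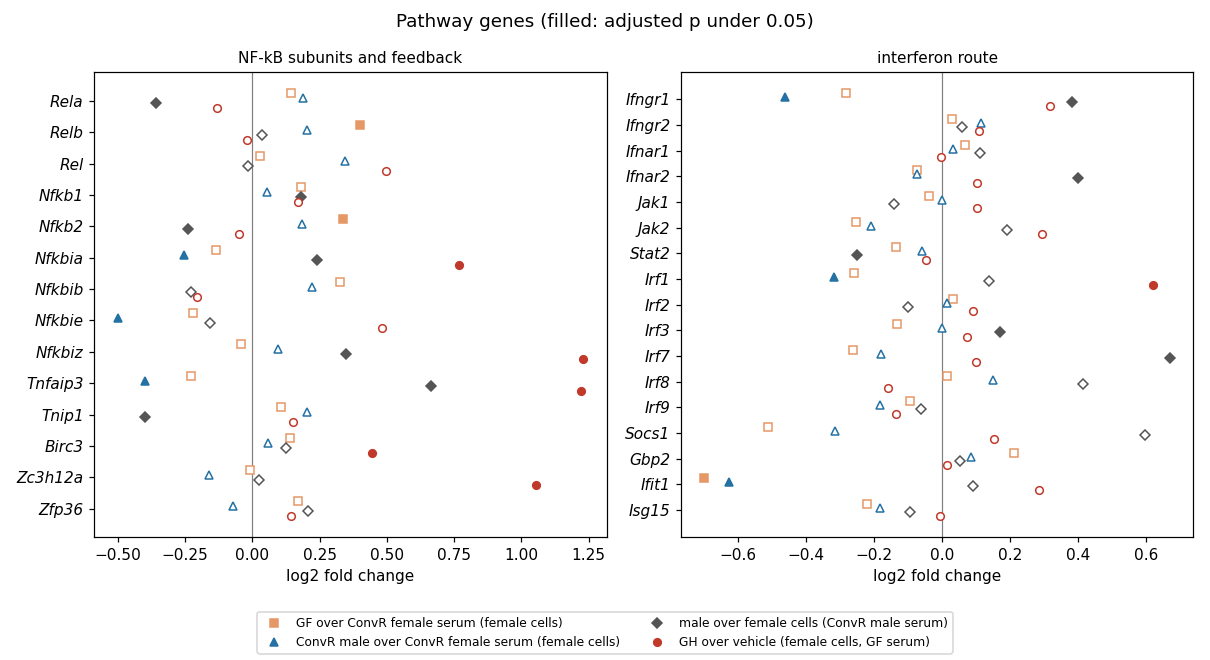
Log2 fold changes (horizontal axes) of 14 NF-kB genes (left) and 17 interferon route genes (right) in the 4 comparisons, with filled symbols where the edgeR adjusted p was under 0.05. The 5 filled circles for growth hormone on the left lie between 0.44 and 1.23, and on the right only that of Irf1 is filled.

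Genes whose levels followed a member most closely were sought over the 10 libraries of female hepatocytes, among 11600 genes. These correlations of log2 CPM describe libraries that share 4 groups and carry no test. Cxcl1 was most like Arrdc4 (r = 0.978), Rnd1 (0.977) and Tnfaip2 (0.968), and Cxcl2 most like Arrdc4 (0.965), Cxcl1 itself (0.959) and Cxcl3 (0.956). Cxcl5 was most like Plek (0.96), Map3k8 (0.944), a kinase of inflammatory signalling, and Pde4b (0.941), a phosphodiesterase. Cxcl10 was most like Itga2 (0.98), an integrin subunit, Itpripl2 (0.958) and Nfkb2 (0.955). Cxcl11 was most like Paqr8 (0.971), Ube2f (0.964) and Fermt1 (0.957), and Cxcl16 most like Crct1 (0.961), Snrnp27 (0.96) and Pdia4 (0.953). Cxcl16 was included for its call in male cells. Its group means spanned only 1.24-fold, and no neighbouring female groups differed for it (edgeR adjusted p 0.51 to 0.69). Neither Cxcl10 nor Cxcl11 was among the 3 genes nearest to the other, which among 11600 genes says little about how alike they were.

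Effects of related or overlapping genes could be seen only in part, because any reads left out as ambiguous do not appear in counts. Among transcripts of the members and Cxcl3, runs of 50 identical bases were shared by 1 pair, Cxcl2 and Cxcl3 (126 runs, 5.84% of those of Cxcl2). Cxcl3 was the scarcer, at 0.644 CPM against 7.76 CPM of Cxcl2 in male cells, so its values are the less certain. How far this moved the tests of Cxcl3 or its likeness to Cxcl2 was not tested. Cxcl10 shares 133 exonic bases with Art3 on the opposite strand. Art3 had 9 to 37 counts per library, against 152 to 2469 of Cxcl10, or 1.41 to 10.1% of them. Cxcl11 shares 1582 of its 3794 exonic bases with the pseudogene Gm2673, which had at most 7 counts. Cxcl16 shares 552 of its 3021 with Zmynd15, which had 81 to 158 counts against at least 4580 of Cxcl16. The strand setting of the counting is not stated in the labels or headers.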

How the data were processed

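Per the labels' protocols, stranded libraries were made from 250 ng of total RNA depleted of ribosomal RNA, and amplified for 12 cycles. Reads were aligned with STAR 2.4.0i to mm10, per the submitters' processing notes. The deposited values are raw whole-number counts per gene over exons, without scaling. For the counting program, annotation and filters, nothing is given in the sources used here. The labels list 15 samples. A pair of columns shares 1 header name and could not be assigned, so these 2 columns of per-sample values were used in no step, which left 13 libraries.

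Genes with low counts were removed (filterByExpr, minimum count 10), which left 17405, and library sizes were scaled by TMM. One fit of 5 group means, without covariates and with 8 residual degrees of freedom, was tested with edgeR 4.0.16 (quasi-likelihood F test, two-sided, R 4.3.3), with Benjamini-Hochberg adjustment over all genes tested and a threshold of 0.05. The biological coefficient of variation was 9%. The members were read from this fit in 4 comparisons and in 3 further pairs of female groups. Replicates of 1 group differed by 5.46 to 53.36 in chi-square over its degrees of freedom, more than sampling noise gives. Coordinates and exon lengths are those of GENCODE release M21 (mm10), which held 36308 of 38087 row identifiers. All 103 listed genes were found, 98 by symbol and 5 by gene identifier, and 1 gene first listed for the interferon route is not reported here.

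The members and lists were chosen with earlier results of these data known. Named genes were all members, up to 4 called genes per list and comparison, and the 3 genes of highest Pearson correlation with each called member (mean of at least 50 counts in both, predicted models and overlapping genes left out). Scarce receptors, Birc3 and single markers were named after their values were seen. Alternatives were DESeq2 1.42.0 with its own test, its size factors, library totals, no filter on low counts, a replicate block, fits of only 2 groups, each library left out in turn, and both libraries rich in Xist left out. The method was tested on simulated counts.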

Additional observations from a re-analysis of the deposited data

How the results depend on the processing

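Over the 7 pairs of groups, 765 fits of single members under the alternatives kept direction and side of the threshold in 694 cases; 46 lost a call, 18 gained one and 7 changed sign. The calls of Cxcl10 with germ-free serum, of Cxcl1, Cxcl2 and Cxcl11 with conventional male serum, of Cxcl1, Cxcl10 and Cxcl11 in male cells and of Cxcl1 and Cxcl2 with the hormone held in all of them. Called members numbered 4 with germ-free serum but 2 when just these groups were fitted, and 1 to 3 when a library was left out. With growth hormone 3 were called, 5 without the low-count filter and 2 in each fit that left out a library. With conventional male serum (4) the range was 3 to 4 and in male cells (5) it was 4 to 6. Without both libraries rich in Xist 3, 3, 4 and 2 members were called with germ-free serum, with male serum, in male cells and with the hormone. The cause of these shifts was not tested. Changes of sign concerned small values only. Cxcl9 with germ-free serum changed by 0.11, by -0.11 to 0.29 when a library was left out and by -0.011 without both libraries rich in Xist. Between germ-free serum with hormone and conventional male serum it changed by -0.07, by -0.16 to 0.018 with a library left out and by 0.020 without that pair. Cxcl16 with male serum ranged from -0.18 to 0.024, and Cxcl12 between germ-free serum with hormone and conventional female serum from -0.22 to 0.018.

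Over all genes, 1115 were called with germ-free serum, but 1731 without the filter, 611 in a fit of only 2 groups, 367 without both libraries rich in Xist and 274 to 1225 with a library left out. With male serum 1532 were called, but 468 in a fit of only 2 groups, 825 without both libraries rich in Xist and 663 to 1652 with a library left out. With the hormone 102 were called, but 796 without the filter, 272 with DESeq2, 156 in a fit of only 2 groups and 33 to 190 with a library left out. For equal replicate numbers, deviations from the group means correlated by 0.038 to 0.126 between male and female cells. In the other comparisons they correlated by -0.016 to 0.09 (across genes, which are not independent replicates). Where both groups had 2 libraries, the 2 values mirror each other and count as 1. Such weak correlations cannot tell if samples shared a culture or serum pool. With a replicate block 3, 4, 5 and 3 members were called in the 4 comparisons, with Cxcl11 lost for germ-free serum (adjusted p = 0.0585), and 62 genes were called with the hormone. Between germ-free and conventional male serum 3 members and 78 genes were called, but 6 members and 622 genes without the filter and 6 and 311 with DESeq2, which both added Cxcl5, Cxcl11 and Cxcl16. A replicate block gave 2 and 31, with Cxcl10 lost (adjusted p = 0.0646), leaving a library out 1 to 4 and 2 to 160, and leaving out both libraries rich in Xist 5 and 286. Between germ-free serum with hormone and conventional female serum 5 members and 481 genes were called, but 4 and 222 in a fit of only 2 groups and 3 to 5 and 232 to 413 with a library left out, and 922 genes without the filter and 751 with DESeq2. Between germ-free serum with hormone and conventional male serum 4 members and 505 genes were called, but 3 and 235 in a fit of only 2 groups, where Cxcl10 was lost (adjusted p = 0.0815), and 230 to 952 genes with a library left out, 1158 without the filter and 845 with DESeq2. Low counts limit Cxcl5, Cxcl9 and Cxcl14.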
